A study of Mus musculus with 9 samples.

Results

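The expression of 33 genes for collagens and stromal matrix was examined in juvenile mouse ovaries on postnatal day (PD) 14, 15 and 16. The genes were chosen by name, and all 33 were found among the 52025 genes of the deposited tables. The study addressed how the follicular antrum first forms (iFFA in its terms), that is the fluid-filled cavity that opens among the granulosa cells of a growing follicle. RNA-Seq was performed on ovaries of untreated Kunming mice, an outbred strain, with 3 libraries for each of the 3 days and 9 libraries in all. The study describes the 3 libraries of a day as independent ovaries. In the labels the tissue is ovary, whereas the source is named as granulosa cells, and no genetic or drug treatment is given for any library. Markers of oocytes, theca cells, smooth muscle and endothelium were all measured in every day's libraries, as described with the cell type markers at the end, and the libraries were treated as ovaries.

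Collagens are built from 3 chains that wind into a triple helix. Fibrillar collagens (types I, III and V) form the cables of the ovarian stroma and the theca, whereas collagen IV forms the sheet of the basement membranes that surround each follicle and each blood vessel. Collagen VI forms beaded filaments between the fibrils and the cells, collagens XII and XIV coat fibrils, and collagens XV and XVIII sit at the edge of basement membranes. Elastic fibres consist of elastin on a scaffold of fibrillins and fibulins. Glycoproteins such as fibronectin link the matrix to integrins on cells, small leucine-rich proteoglycans bind to fibrils and regulate their width, and lysyl oxidases cross-link collagen and elastin. In bulk tissue, fewer cells of a type and less RNA per cell cannot be told apart.

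Sequences at the start sites of 4 loci are shown first, because the results concern these genes. The first is the stretch between the opposed start sites of Col4a2 and Col4a1, whose levels ran in parallel. Then follow Fbln1, the gene that differed between days, Col15a1, which had the largest log2 difference between days, and Col3a1, the most abundant fibrillar collagen transcript. They were taken from a table of RefSeq promoters (GRCm38.p6), in which 21 of the 33 genes were matched by symbol, and the others were not analysed here. The Col4a2 and Col4a1 sequence is chr8:11312805-11312826 on the plus strand, and the 2 start bases are 21 bases apart. In GENCODE M21 these 22 bases are exon sequence of both genes, which overlap there on opposite strands. The other 3 are the 250 bases before the most upstream listed start, at chr15:85205699-85205948 for Fbln1, chr4:47207762-47208011 for Col15a1 and chr1:45311288-45311537 for Col3a1, all on the plus strand and free of annotated exons in GENCODE M21. Each was searched on both strands for the TATA box, spelled TATAAA, for the CCAAT box by that name, and for the GC box, spelled GGGCGG. Capitals mark a match, and no matches overlapped.
Col4a2 and Col4a1: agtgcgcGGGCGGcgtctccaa
Fbln1: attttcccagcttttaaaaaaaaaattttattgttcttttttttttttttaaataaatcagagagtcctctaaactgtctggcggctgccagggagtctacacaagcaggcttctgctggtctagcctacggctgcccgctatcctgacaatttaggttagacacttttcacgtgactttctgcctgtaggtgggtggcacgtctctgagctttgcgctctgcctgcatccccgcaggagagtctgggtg
Col15a1: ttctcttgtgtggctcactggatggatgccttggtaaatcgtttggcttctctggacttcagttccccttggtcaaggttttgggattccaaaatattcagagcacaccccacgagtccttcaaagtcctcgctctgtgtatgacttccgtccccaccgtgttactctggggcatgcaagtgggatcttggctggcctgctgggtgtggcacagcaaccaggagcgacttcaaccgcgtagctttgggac
Col3a1: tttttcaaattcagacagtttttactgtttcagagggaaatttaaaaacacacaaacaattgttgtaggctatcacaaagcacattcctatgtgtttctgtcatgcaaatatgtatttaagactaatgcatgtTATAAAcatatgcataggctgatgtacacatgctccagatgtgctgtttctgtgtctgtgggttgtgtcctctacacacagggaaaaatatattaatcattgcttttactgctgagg

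The 22 bases between the collagen IV starts held 1 GC box, a motif found in 4.09% of 32851 promoters over the 22 bases from the start on. The Col3a1 window held 1 TATA box, with 111 bases between it and the start. The windows of Fbln1 and Col15a1 held none of the 3 motifs. Across all promoters of 250 bases, 12.4% held a TATA box, 33.8% a CCAAT box and 32.7% a GC box. Of the 21 matched matrix genes, 2 held the first, 6 the second and 12 the third. A match describes letters in a window and is neither a bound site nor a cause.

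The libraries held 20.4 to 28.7 M mapped fragments, as derived from the FPKM (mapped fragments scaled by exon length and by library depth) of low genes. Median-ratio factors ran from 0.992 to 1.01, and no library stood apart in depth or scale. All 33 matrix genes were among the 15495 genes tested, for which the mean of a day had to exceed 1 FPKM. FPKM is per length, so that levels can be set side by side between genes. The most abundant matrix transcript was Sparc, a collagen-binding glycoprotein, at 353 FPKM on average over the 9 libraries, which put it at percentile 99.5 of the genes tested. It was followed by Col6a1 at 179, Col3a1 at 169.7, Col4a1 at 144 and Col1a2 at 125 FPKM. The least abundant were Col14a1 at 1.97 FPKM, Col4a3 at 2.53 and Postn at 3.60. Even Col14a1 was read from 265 to 487 fragments per library. The 33 genes took 0.490% to 0.647% of the FPKM of a library, in sum 1807 to 1997 FPKM on PD14, 1621 to 1752 on PD15 and 1697 to 1838 on PD16. The summed level was thus higher in each PD14 library than in each PD15 library, whereas PD14 and PD16 overlapped. As a share of the FPKM of a library, PD14 and PD15 overlapped too, with PD14 replicate 3 at 0.545% and PD15 replicate 2 at 0.561%.

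**Figure D1:**
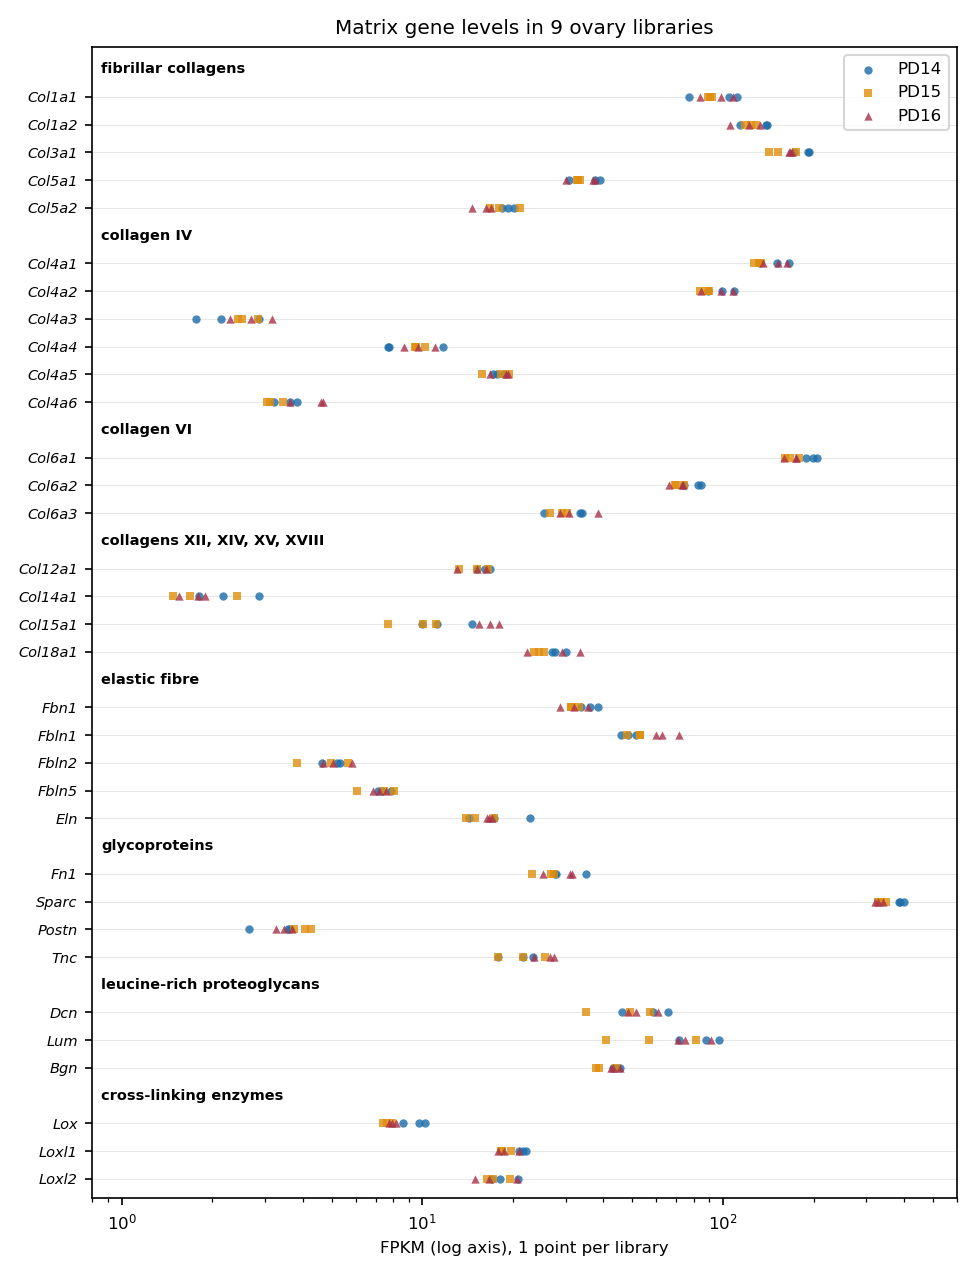
FPKM (log axis) of the 33 matrix genes in the 9 libraries, 1 point per library, with PD14 as circles, PD15 as squares and PD16 as triangles. Levels spanned from 1.48 FPKM (Col14a1) to 399.6 FPKM (Sparc), a far wider span than that of any 1 gene over the 9 libraries.

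Of the 33 matrix genes, 1 passed the test between any 2 of the 3 days, and the shares given with each count are those of all genes tested. Tests used limma on log2(FPKM + 1), with Benjamini-Hochberg adjustment over all genes tested and an adjusted p under 0.05 as the limit, and fold changes are on this scale, on which low genes change less than in FPKM. Between PD14 and PD15 none of the 33 genes passed in either direction, where 0.336% of all genes were higher and 0.342% lower, and 8 had an unadjusted p under 0.05 (14.7% of all genes). Between PD14 and PD16 1 of 33, Fbln1, rose and none fell, where 2.36% of all genes were higher and 1.89% lower, and 9 had an unadjusted p under 0.05 (22.8% of all genes). Between PD15 and PD16 none passed, where 0.432% of all genes were higher and 0.297% lower, and 4 had an unadjusted p under 0.05 (14.1% of all genes). Fbln1 was also the 1 gene that passed limma's test for any difference among the days (adjusted p = 0.049), which 3.03% of all genes passed. This last call held under no alternative but the filter on a mean FPKM above 5. For 28 of the 33 genes, the 95% interval of the change to PD15 lay within 0.5 of 0 on the log2 scale, as it did for 80.1% of all genes. The same held for 28 genes between PD14 and PD16 (76.9% of all genes) and for 27 between PD15 and PD16 (79.9% of all genes), so that the matrix genes lay near the shares of all genes. The widest intervals reached past 1 in size, to -1.05 for Lum to PD15 and to 1.08 for Col15a1 from PD15 to PD16. The others that reached past 0.5 were Col14a1, Col15a1, Eln and Dcn to PD15, Col14a1, Col15a1, Fbln1, Tnc and Lum from PD14 to PD16, and Col4a6, Fbln1, Tnc, Dcn and Lum from PD15 to PD16.

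The direction of the means was uneven. From PD14 to PD15 the mean was lower for 28 of the 33 genes, against 48.1% of all genes, with a median log2 change of -0.13 against 0.01 over all genes. Without PD14 replicate 2 this median was -0.08 with 25 genes lower, and without PD14 replicate 3 it was -0.22 with 28 lower. From PD14 to PD16 it was lower for 22 genes, against 47.8%, with a median of -0.04 against 0.01. The median became 0.03 without PD14 replicate 2 and 0.0025 without PD16 replicate 1, each with 16 genes lower, and -0.10, -0.07 and -0.09 without PD14 replicate 3, PD16 replicate 2 and PD16 replicate 3. From PD15 to PD16 it was lower for 8 genes, against 46.8%, with a median of 0.07 against 0.01. This became 4 genes without PD16 replicate 1 and 12 under median-ratio scaling, and the median was 0.04 without PD15 replicate 1, PD16 replicate 2 or PD16 replicate 3. The comparisons with PD14 share its libraries, as do those with PD15, and the genes of a library are not independent of each other.

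**Figure D2:**
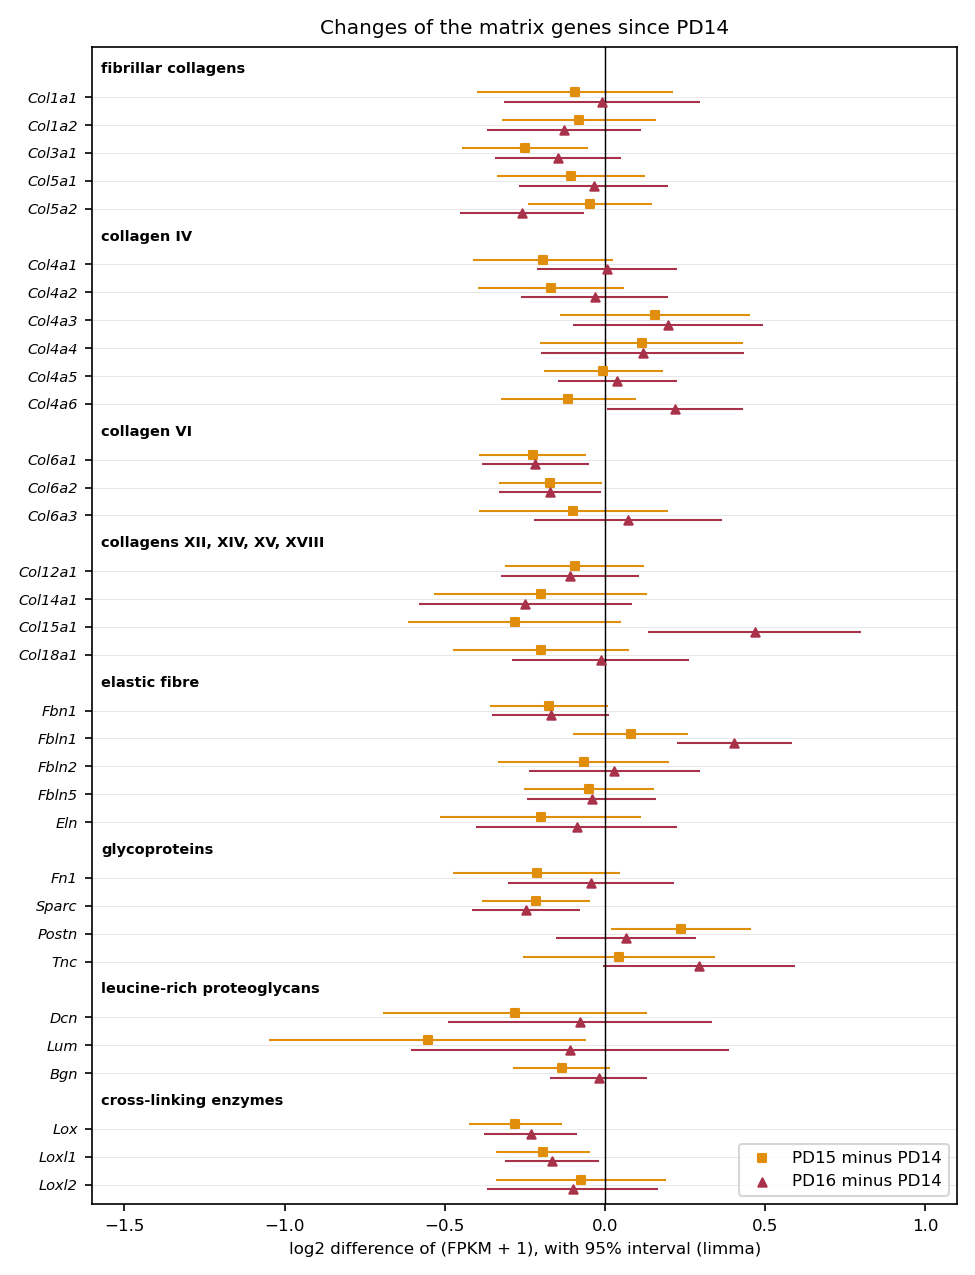
Differences of log2(FPKM + 1) from PD14 to PD15 (squares) and from PD14 to PD16 (triangles) for the 33 matrix genes, with 95% intervals from limma (n = 3 libraries a day). Most intervals span 0, the PD15 squares lie mostly left of it, and the PD16 triangles of Fbln1 and Col15a1 lie farthest right.

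Single libraries differed as much as days did. As the mean deviation of the 33 genes from their own means on the log2 scale, PD14 replicate 2 was highest at 0.14, with 28 of 33 genes above their mean. PD15 replicate 1 was lowest at -0.13, with 5 of 33 genes above. The other 7 libraries lay between -0.08 and 0.08. Within days, the coefficient of variation was smallest for Sparc (2.82%), Col6a1 (4.88%) and Lox (5.38%), and largest for Lum (23.0%), Col14a1 (21.2%) and Dcn (18.5%). Of the genes whose libraries did not overlap between PD14 and PD15, 8 were lower on PD15 (10.2% of all genes were) and 1 higher (10.4% were). The 8 were Col6a1, Col6a2, Col18a1, Fbn1, Fn1, Sparc, Lox and Loxl1, and the 1 was Postn. Between PD14 and PD16, 7 were lower without overlap (13.5% of all genes), namely Col3a1, Col5a2, Col6a1, Col6a2, Sparc, Lox and Loxl1, and 3 were higher (15% of all genes), namely Col15a1, Fbln1 and Tnc. Between PD15 and PD16, Col4a1, Col4a6, Col15a1 and Fbln1 were higher without overlap (9.85% of all genes) and Postn was lower (9.73%).

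Among the fibrillar collagens, none of the 5 chains passed the test in any comparison. Col3a1, which encodes the single chain of collagen III, was at 191, 193 and 172 FPKM on PD14, at 142, 174 and 152 on PD15, and at 167, 169.5 and 166 on PD16. The 3 PD16 libraries were nearly equal and all below those of PD14, whereas PD14 and PD15 overlapped through 1 library of each. The log2 change was -0.25 ± 0.09 (SE, n = 3 a day) to PD15 (limma, adjusted p = 0.23). Col1a2, the second chain of collagen I, was at 140.4, 139 and 114 FPKM on PD14, at 124, 129 and 118 on PD15, and at 105, 133 and 122 on PD16. Its partner Col1a1 was at 105, 111 and 77.3 FPKM on PD14, at 89.3, 92.0 and 90.4 on PD15, and at 83.6, 108 and 98.5 on PD16. For both chains of collagen I the days overlapped, and PD14 replicate 3 was the lowest library of Col1a1. Their changes were all under 0.15 on the log2 scale. Of the collagen V chains, which set fibril width, Col5a1 ranged from 30.2 to 39.1 FPKM with all days overlapping. Col5a2 was at 18.4, 20.1 and 19.3 FPKM on PD14, at 16.9, 21.2 and 18 on PD15, and at 16.9, 14.7 and 16.3 on PD16. The PD16 libraries of Col5a2 were all below those of PD14, with a log2 change of -0.26 ± 0.09 (limma, adjusted p = 0.12). From PD15 to PD16 the change was -0.21 ± 0.09 (adjusted p = 0.30), or -0.12 without PD15 replicate 2.

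Of the 6 chains of collagen IV, none passed the test, and Col4a1 and Col4a2 made up 85.8% to 88.9% of their summed FPKM in each library. These are the chains of the network found in nearly all basement membranes. Col4a1 was at 151, 166 and 133 FPKM on PD14, at 131, 134 and 126 on PD15, and at 136, 152 and 164 on PD16. Col4a2 was at 99.0, 109 and 88.8 FPKM on PD14, at 89.9, 89.1 and 83.8 on PD15, and at 84.4, 98.4 and 108 on PD16. Both were lowest on average on PD15, and for Col4a1 every PD16 library was above every PD15 library. The log2 change of Col4a1 was -0.19 ± 0.10 to PD15 and 0.20 ± 0.10 from PD15 to PD16 (limma, adjusted p = 0.40 and 0.39). That of Col4a2 was -0.17 ± 0.10 to PD15 (adjusted p = 0.48). Without PD14 replicate 2, the changes to PD15 became -0.12 for Col4a1 and -0.10 for Col4a2. Col4a3 and Col4a4 form a network together with Col4a5, and they stood at 1.77 to 3.17 and 7.72 to 11.7 FPKM. The log2 change of Col4a3 was 0.16 ± 0.13 to PD15 and 0.20 ± 0.13 to PD16 (limma, adjusted p = 0.62 and 0.41), with 0.05 and 0.09 without PD14 replicate 3 and 0.29 and 0.33 without PD14 replicate 2. The change to PD16 was 0.11 without PD16 replicate 3. Col4a5 ranged from 15.8 to 19.4 FPKM, the narrowest span of the collagen chains with a highest value 1.23 times the lowest. Col4a6, which joins Col4a5 in a further network, was at 3.82, 3.62 and 3.21 FPKM on PD14, at 3.04, 3.13 and 3.44 on PD15, and at 3.64, 4.62 and 4.67 on PD16. The PD16 libraries of Col4a6 were all above those of PD15, with a log2 change of 0.33 ± 0.09 (limma, adjusted p = 0.15), and the change from PD14 to PD16 was 0.22 ± 0.09 (0.21).

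Of the collagen VI chains, Col6a1 and Col6a2 had lower levels on both later days without passing the test. Col6a1 was at 199.97, 205 and 188 FPKM on PD14, at 161, 178 and 167 on PD15, and at 159.8, 175 and 176 on PD16. Col6a2 was at 84.4, 82.3 and 74.1 FPKM on PD14, at 69.5, 74.0 and 69.9 on PD15, and at 66.4, 73.2 and 73.9 on PD16. For both, every PD14 library was above all 6 later libraries, by a narrow margin for Col6a2. The log2 change of Col6a1 was -0.22 ± 0.07 to PD15 (limma, adjusted p = 0.20) and -0.22 ± 0.07 to PD16 (0.12). That of Col6a2 was -0.17 ± 0.07 to either day (adjusted p = 0.31 and 0.19). Col6a3, the chain with the large globular ends, did not follow and ranged from 25.5 to 38.4 FPKM with the 3 days overlapping. Its log2 change from PD15 to PD16 was 0.17 ± 0.13 (adjusted p = 0.62) and 0.05 without PD16 replicate 3.

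Of the 4 chains of the collagens that bind to fibrils or basement membranes, none passed the test, and all 4 had lower means on PD15 than on PD14. Col15a1, the chain of collagen XV at the outer face of basement membranes, was at 11.2, 14.6 and 10.01 FPKM on PD14, at 7.67, 11.1 and 10.1 on PD15, and at 16.7, 15.4 and 17.98 on PD16. All 3 PD16 libraries were above all 6 earlier ones. The log2 change was 0.75 ± 0.15 from PD15 to PD16, the largest of the 33 genes in any comparison (limma, adjusted p = 0.061), and 0.47 ± 0.15 from PD14 to PD16 (0.10). From PD15 to PD16 it fell under the limit when only genes with a mean FPKM above 5 were tested or when PD14 replicate 2 was left out (adjusted p = 0.042 at the lowest), and it ran up to 0.17 under the other alternatives. From PD14 to PD15 the log2 change was -0.28 ± 0.15 (adjusted p = 0.41), and -0.14 without PD14 replicate 2 or without PD15 replicate 1. Col18a1, the chain that contains endostatin, was at 27.7, 30.2 and 27.0 FPKM on PD14, at 24.5, 25.5 and 23.5 on PD15, and at 22.3, 29.2 and 33.5 on PD16. All PD15 libraries were below those of PD14, while PD16 spanned both, and the log2 change was -0.20 ± 0.12 to PD15 (adjusted p = 0.49) and 0.19 ± 0.12 from there to PD16 (0.55). The latter became 0.06 without PD16 replicate 3 and 0.34 without PD16 replicate 1. Col12a1 ranged from 13.0 to 16.8 FPKM and Col14a1 from 1.48 to 2.87 FPKM with all days overlapping. The log2 change of Col14a1 was -0.20 ± 0.15 to PD15 and -0.25 ± 0.15 to PD16 (adjusted p = 0.57 and 0.35), and -0.08 and -0.12 without PD14 replicate 2. The change to PD15 was -0.31 without PD14 replicate 1, -0.11 without PD15 replicate 1 and -0.33 without PD15 replicate 2.

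Among the 5 genes of elastic fibres, Fbln1 rose. It encodes fibulin-1, a calcium-binding glycoprotein of elastic fibres and basement membranes. Fbln1 was at 45.9, 48.2 and 51.5 FPKM on PD14, at 53.0, 53.1 and 48.1 on PD15, and at 59.9, 71.4 and 62.8 on PD16. All 3 PD16 libraries were above all 6 earlier ones, and PD14 and PD15 overlapped. The means were 48.5 ± 2.82, 51.4 ± 2.90 and 64.7 ± 5.96 FPKM (SD, n = 3), and the log2 change from PD14 to PD16 was 0.40 ± 0.08 (limma, adjusted p = 0.029). From PD15 to PD16 it was 0.32 ± 0.08 (adjusted p = 0.10). The call rested on all the libraries of both days: without any 1 of the 3 PD14 or 3 PD16 libraries the adjusted p was 0.053 to 0.093, with log2 changes of 0.33 to 0.46.

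The other elastic fibre genes did not pass. Fbn1, the fibrillin that makes up most microfibrils, was at 36.1, 38.5 and 33.6 FPKM on PD14, at 33.2, 31.3 and 31.1 on PD15, and at 28.8, 31.8 and 35.6 on PD16. The PD15 libraries were all below those of PD14, with a log2 change of -0.17 ± 0.08 to either later day (limma, adjusted p = 0.36 for PD15 and 0.25 for PD16), the latter -0.10 without PD16 replicate 1. Eln, which encodes elastin, was at 14.3, 22.8 and 17.4 FPKM on PD14, at 14.0, 17.3 and 15.0 on PD15, and at 16.7, 16.5 and 17.01 on PD16. PD14 replicate 2 was the highest library of Eln, the days overlapped, and the log2 change to PD15 was -0.20 ± 0.14 (adjusted p = 0.54), or -0.03 without that library and -0.35 without PD14 replicate 1. Fbln2 ranged from 3.84 to 5.83 FPKM and Fbln5, which helps to assemble elastin, from 6.07 to 8.03 FPKM, both with overlapping days. On the opposite strand, the non-coding gene Gm9913 shares 20.1% of the exon bases of Fbn1, at 0.125 FPKM itself, and whether counting used the strand is not given in the sources used here.

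Of the 4 glycoproteins, none passed the test. Sparc, which binds collagen and is made by cells that lay down basement membrane, was at 385, 399.6 and 389 FPKM on PD14, at 327, 349 and 337 on PD15, and at 328, 341 and 321 on PD16. Every PD14 library was above all 6 later ones. The log2 change was -0.21 ± 0.08 to PD15 (limma, adjusted p = 0.23) and -0.24 ± 0.08 to PD16 (0.095). The latter ranged from 0.048, without the intensity trend, to 0.26 over the alternatives. Fn1, fibronectin, was at 27.7, 35.0 and 27.8 FPKM on PD14, at 26.7, 27.5 and 23.2 on PD15, and at 25.2, 31.4 and 31.0 on PD16. The PD15 libraries of Fn1 were below those of PD14 by a margin of less than 1 FPKM, and the log2 change was -0.21 ± 0.12 (adjusted p = 0.43), and -0.10 without PD14 replicate 2 and -0.14 without PD15 replicate 3. From PD15 to PD16 it was 0.17 ± 0.12 (adjusted p = 0.56), or 0.10 without PD15 replicate 3 and 0.27 without PD16 replicate 1. Tnc, tenascin-C, an anti-adhesive protein of remodelling tissue, was at 17.8, 23.3 and 21.6 FPKM on PD14, at 21.6, 25.7 and 17.9 on PD15, and at 23.5, 26.5 and 27.3 on PD16. All PD16 libraries of Tnc were above those of PD14, with a log2 change of 0.29 ± 0.13 (adjusted p = 0.23), or 0.19 without PD14 replicate 1, and 0.25 ± 0.13 from PD15 to PD16 (0.44), or 0.12 without PD15 replicate 3. Its exons overlap those of 8030451A03Rik on the other strand by 2.26%, and that gene was at 12.6 FPKM. Postn, periostin, was at 2.66, 3.57 and 3.63 FPKM on PD14, at 4.27, 4.07 and 3.76 on PD15, and at 3.68, 3.46 and 3.27 on PD16. PD15 was thus highest for Postn and overlapped with neither other day, with a log2 change of 0.24 ± 0.10 to PD15 (adjusted p = 0.30; 0.13 without PD14 replicate 1) and -0.17 ± 0.10 from there to PD16 (0.47).

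Of the 3 small leucine-rich proteoglycans, Lum and Dcn varied widely from library to library and Bgn did not, and none passed the test. Lum, lumican, was at 96.7, 71.4 and 88.0 FPKM on PD14, at 40.9, 56.8 and 81.5 on PD15, and at 91.1, 74.8 and 71.0 on PD16. The PD15 libraries spread most and held the lowest of the 9 values, and the highest was 2.37 times the lowest. The log2 change was -0.55 ± 0.22 to PD15, the largest of the 33 genes in that comparison (limma, adjusted p = 0.29), and 0.44 ± 0.22 from PD15 to PD16 (0.40). Without PD15 replicate 1 these became -0.31 and 0.20, and without PD15 replicate 3 the latter was 0.69. Dcn, decorin, was at 65.5, 46.2 and 58.7 FPKM on PD14, at 35.0, 49.0 and 57.3 on PD15, and at 61.0, 48.2 and 51.3 on PD16. Its order of libraries resembled that of Lum, with PD15 replicate 1 lowest in both. The log2 change of Dcn was -0.28 ± 0.18 to PD15 (adjusted p = 0.52) and -0.08, -0.17 and -0.43 without PD15 replicate 1, PD14 replicate 1 and PD15 replicate 3. From PD15 to PD16 it was 0.20 ± 0.18 (adjusted p = 0.69), and ran from 0.0066 without PD15 replicate 1 to 0.36 without PD15 replicate 3. Bgn, biglycan, ranged from 37.9 to 45.5 FPKM, with a coefficient of variation within days of 5.58%.

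**Figure D3:**
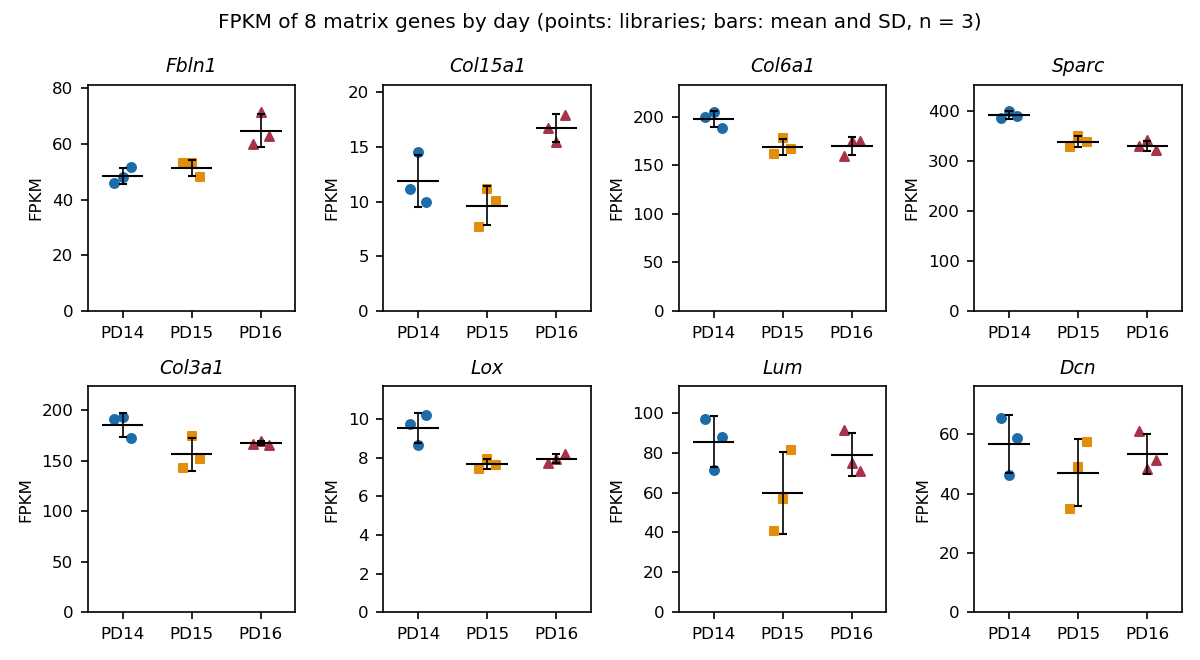
FPKM of 8 matrix genes on PD14, PD15 and PD16, with a point per library and the mean and SD (n = 3) as bars. The PD16 libraries of Fbln1 and Col15a1 lie above all others, the PD14 libraries of Col6a1, Sparc and Lox above all others, and Lum and Dcn spread most on PD15.

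The cross-linking enzymes had lower means on both later days, and none passed the test. Lox, the lysyl oxidase that acts on collagen and elastin, was at 9.72, 8.66 and 10.2 FPKM on PD14, at 7.40, 7.92 and 7.63 on PD15, and at 7.72, 7.94 and 8.17 on PD16. All PD14 libraries were above all 6 later ones. The log2 change was -0.28 ± 0.06 to PD15 and -0.23 ± 0.06 to PD16 (limma, adjusted p = 0.095 and 0.075), and the latter was under the limit without PD14 replicate 2 (0.047). Loxl1, which acts mainly on elastin, was at 21.6, 21.0 and 22.1 FPKM on PD14, at 18.4, 19.7 and 18.2 on PD15, and at 18.7, 21.0 and 17.9 on PD16. Its PD14 libraries were again above the later ones, although 1 PD16 library came within less than 1 FPKM, with log2 changes of -0.19 ± 0.07 and -0.17 ± 0.07 (adjusted p = 0.22 and 0.17). Loxl2 ranged from 15.0 to 20.8 FPKM with overlapping days.

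Genes whose products assemble with each other were compared across the 9 libraries. Of 8 pairs, 7 were chains of the same collagen type, and Col1a1 with Col3a1 were chains of separate collagens that share fibrils. After adjustment over the 8, 4 pairs, all of the same type, had correlated levels on the log2 scale (exact permutation test, two-sided). For Col4a1 and Col4a2, which start 21 bases apart on opposite strands, Pearson's r was 0.965 (exact permutation, adjusted p = 0.0018) and Spearman's rho 0.833 (0.017), and r was 0.903 without the 2 libraries farthest from the median of Col4a1. For Col6a1 and Col6a2, which lie 85.2 kb apart on chromosome 10, r was 0.955 (exact permutation, adjusted p = 9.5e-04) and rho 0.983 (4.0e-04), and r was 0.898 without 2 libraries. Both pairs thus ran in parallel from library to library. For Col4a3 and Col4a4, with 0.072 kb between them on chromosome 1, r was 0.873 (exact permutation, adjusted p = 0.0054) and rho 0.900 (0.0081), and r was 0.828 without 2 libraries. For Col1a1 and Col1a2, on different chromosomes, r was 0.857 (exact permutation, adjusted p = 0.0074) and rho 0.850 (0.016), and r was 0.838 without 2 libraries. After subtraction of the day means, r was 0.978, 0.906, 0.875 and 0.946 for these 4 pairs, so that the parallel course held within days. Among all 528 pairs of the 33 matrix genes, the median r was 0.293 (0.266 within days), and 15 pairs (2.84%), these 4 included, had an r at least as high as Col1a1 and Col1a2. Pairs of genes share the 9 libraries and their shifts, and these values are a description.

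The other 4 pairs did not pass. The Pearson r was 0.558 for Col4a5 and Col4a6 (exact permutation, adjusted p = 0.19; rho 0.417, 0.36), and 0.487 for Col1a1 and Col3a1 (0.25; rho 0.5, 0.28). It was 0.245 for Col6a1 and Col6a3 (exact permutation, adjusted p = 0.60; rho 0.250, 0.60) and -0.225 without the 2 libraries farthest from the median. For Col5a1 and Col5a2 it was -0.097 (exact permutation, adjusted p = 0.80; rho 0.017, 0.98). Without 2 libraries, r was 0.525 for Col4a5 with Col4a6, 0.543 for Col1a1 with Col3a1 and -0.290 for Col5a1 with Col5a2. Within days, r was 0.688 for Col4a5 with Col4a6, 0.518 for Col1a1 with Col3a1, 0.457 for Col6a1 with Col6a3 and -0.153 for Col5a1 with Col5a2. Dcn and Lum, with 47.0 kb between them on chromosome 10, were set side by side after their values were seen and are therefore given without a test, at r = 0.939 and rho = 0.867. Their r was 0.952 within days and 0.840 without PD15 replicate 1.

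The proportions within pairs, as ratios of FPKM over the 9 libraries, were steady for the correlated pairs. Col4a1 to Col4a2 was 1.52 ± 0.04 (SD, n = 9), with a range of 1.46 to 1.61. Col6a1 to Col6a2 was 2.41 ± 0.07, and Col4a3 to Col4a4 was 0.265 ± 0.023. Col1a1 to Col1a2 was 0.759 ± 0.047, that is with the second chain of collagen I ahead of the first. The pairs that did not pass had wider ratios, such as 1.95 ± 0.31 for Col5a1 to Col5a2 and 5.88 ± 0.81 for Col6a1 to Col6a3. Dcn to Lum, which was not tested, was 0.717 ± 0.085, with means of 0.664 on PD14, 0.808 on PD15 and 0.679 on PD16. FPKM ratios between genes carry the errors of exon length and mapping of each gene, and they are not ratios of protein.

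**Figure D4:**
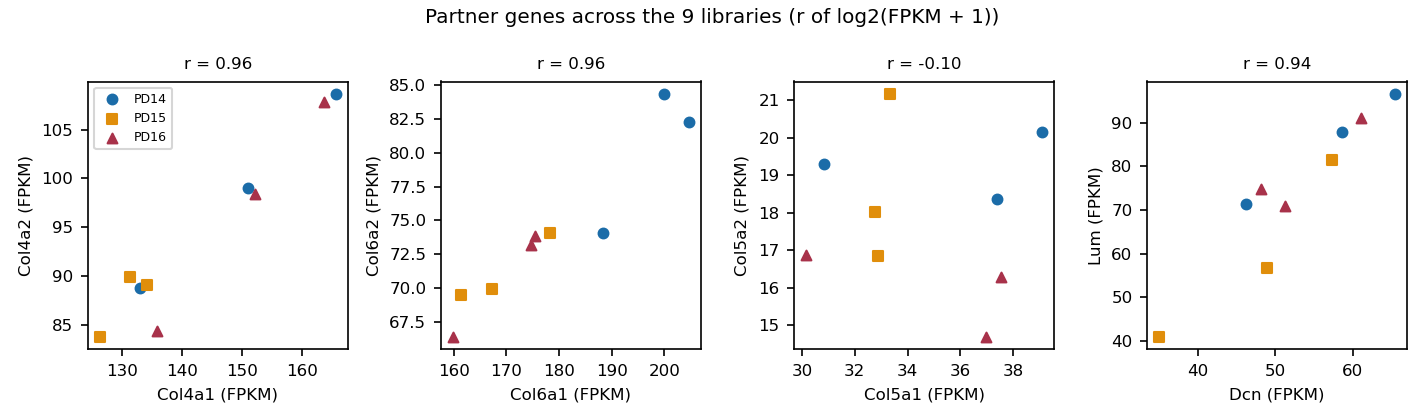
FPKM of 4 pairs of matrix genes in the 9 libraries, 1 point per library, with symbols for the days and Pearson's r of log2(FPKM + 1) above each panel. Col4a1 with Col4a2, Col6a1 with Col6a2 and Dcn with Lum lie along a line, whereas Col5a1 with Col5a2 do not. The axes do not start at 0.

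Further genes of matrix production and signalling were examined in 6 lists. Between PD14 and PD15 no gene of these lists passed the test. Of 24 tested genes for collagen synthesis and processing, 3 passed as higher from PD14 to PD16 and none as lower, where 2.36% of all genes were higher and 1.89% lower. The mean was higher for 16 of the 24 and lower for 8, and the median log2 change of the list was 0.07, against 0.01 over all genes. Libraries did not overlap for 5 of the higher (15% of all genes) and 4 of the lower (13.5% of all genes). Plod2, the lysyl hydroxylase of the telopeptides that prepares collagen for cross-links, was at 54.0, 53.5 and 55.9 FPKM on PD14, at 55.0, 56.1 and 63.1 on PD15, and at 85.3, 75.1 and 79.9 on PD16. All PD16 libraries were above all others, with a log2 change of 0.55 ± 0.07 from PD14 (limma, adjusted p = 0.010) and 0.46 ± 0.07 from PD15 (0.032). Of all genes, 0.432% were higher from PD15 to PD16. P4ha1, a prolyl hydroxylase subunit needed for a stable triple helix, had means of 22.7 ± 1.17, 22.7 ± 1.71 and 28.4 ± 0.956 FPKM (SD, n = 3) and a log2 change of 0.31 ± 0.07 from PD14 to PD16 (adjusted p = 0.034). Adamts2, which removes the N-propeptide of fibrillar procollagens, had means of 32.9 ± 2.56, 37.6 ± 1.88 and 41.7 ± 0.741 FPKM. Its log2 change from PD14 to PD16 was 0.33 ± 0.07 (limma, adjusted p = 0.029). P4ha1 passed under 12 of 20 alternatives, Adamts2 under 11 and Plod2 from PD15 under 12 (adjusted p up to 0.12, 0.10 and 0.12). The collagen chaperone Serpinh1, the most abundant gene of the list, had means of 330.5 ± 20.7, 342 ± 29.9 and 381 ± 24.6 FPKM and did not pass (adjusted p = 0.25 from PD14 to PD16).

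Among 16 other collagen genes none passed in any comparison, and the most abundant, Col9a2, had means of 39.3 ± 18.4, 26.0 ± 1.76 and 40.7 ± 1.30 FPKM (SD, n = 3). Its libraries were at 28.2, 60.6 and 29.2 FPKM on PD14, at 24.8, 28.0 and 25.3 on PD15, and at 39.2, 41.7 and 41.2 on PD16. The calls in the lists that follow stand beside 2.36% of all genes higher and 1.89% lower from PD14 to PD16. Between PD15 and PD16 these shares were 0.432% and 0.297%. Of 15 other genes of elastic fibres, Efemp1, a fibulin like Fbln1, rose from PD14 to PD16. Efemp1 was at 2.62, 3.96 and 2.72 FPKM on PD14, at 1.87, 3.44 and 2.90 on PD15, and at 7.27, 4.996 and 6.14 on PD16, with a log2 change of 0.80 ± 0.19 (limma, adjusted p = 0.046), and it passed under 7 of 20 alternatives (adjusted p up to 0.15). Mfap5, a microfibril protein, rose from PD15 to PD16 by 0.51 ± 0.09 on the log2 scale (adjusted p = 0.046), from a mean of 7.92 to one of 11.8 FPKM, and passed under 9 of 20 alternatives (adjusted p up to 0.14). Its PD14 mean lay between these, at 10.1 FPKM. The log2 change of Mfap5 was -0.31 ± 0.09 from PD14 to PD15 and 0.20 ± 0.09 from PD14 to PD16 (limma, adjusted p = 0.16 and 0.23). Of 6 other leucine-rich proteoglycans, Omd, osteomodulin, rose from PD14 to PD16 and had the largest change of these lists. Omd was at 15.0, 14.6 and 18.4 FPKM on PD14, at 24.7, 17.7 and 32.7 on PD15, and at 33.7, 26.2 and 41.8 on PD16. Its log2 change was 1.02 ± 0.22 (limma, adjusted p = 0.035), and Omd passed under 13 of 20 alternatives (adjusted p up to 0.11). Of 7 collagen receptors, Itga2, the integrin subunit for collagen binding, rose from a mean of 4.65 ± 0.229 FPKM on PD14 and 5.59 ± 0.286 on PD15 to 7.91 ± 0.166 on PD16. Its log2 change was 0.66 ± 0.06 from PD14 and 0.44 ± 0.06 from PD15 (limma, adjusted p = 0.0042 and 0.021). The call from PD15 held under 16 of 20 alternatives (adjusted p up to 0.082). Of 15 genes of TGF-β signalling, which drives matrix expression in many tissues, Smad3 fell from a mean of 49.3 ± 3.44 to one of 36.7 ± 2.81 FPKM between PD14 and PD16, with a log2 change of -0.42 ± 0.09 (adjusted p = 0.032), and it passed under 10 of 20 alternatives (adjusted p up to 0.11).

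**Figure D5:**
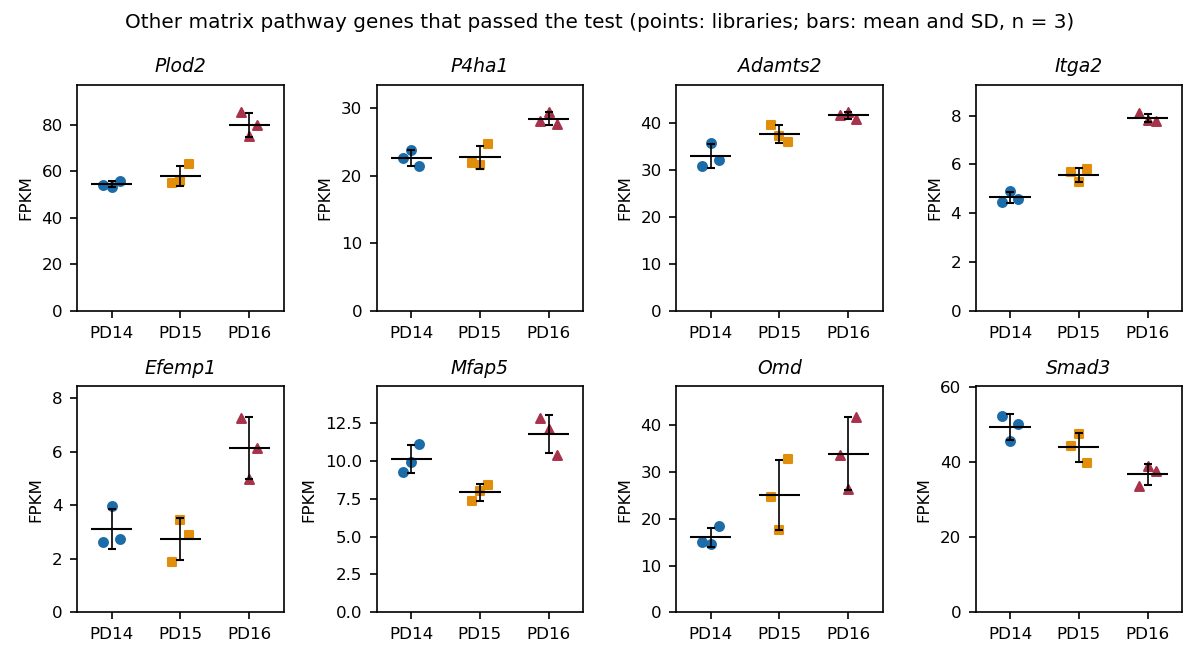
FPKM of 8 genes of matrix production, elastic fibres, collagen binding and TGF-β signalling that passed the limma test in at least 1 comparison, with a point per library and the mean and SD (n = 3) as bars. All but Smad3 have higher PD16 means than PD15 means, and the PD16 libraries of Plod2, P4ha1, Adamts2, Itga2 and Efemp1 lie above all others.

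Cell type markers were summed to show what moved beside the matrix genes. Among all genes tested, 0.336% passed as higher and 0.342% as lower from PD14 to PD15, and 2.36% and 1.89% from PD14 to PD16. From PD15 to PD16 these shares were 0.432% and 0.297%, and 3.03% passed the test for any difference among the days. Of 9 tested stromal markers, none passed the test between any 2 days, while Thy1 passed that for any difference among the days (limma, adjusted p = 0.039), with means of 5.47, 3.69 and 5.17 FPKM on PD14, PD15 and PD16. The most abundant, Mfap4, had means of 133, 112 and 141 FPKM. Their summed level was 309 to 329 FPKM on PD14, 279 to 310 on PD15 and 322 to 341 on PD16, with the lowest mean on PD15 and overlap between PD14 and PD15. Mfap4, which was also listed with the other elastic fibre genes, moved in the same order as this sum. From PD14 to PD15 the mean was lower for 5 of the 9 stromal markers and higher for 4 (median of -0.08 on the log2 scale). Of 7 theca markers none passed, and 6 had lower means on PD15 than on PD14 (median log2 change of -0.41), with sums of 1609 to 2231, 1182 to 1756 and 1211 to 1622 FPKM, most of it from Hsd3b1 (means of 1785, 1291 and 1273 FPKM). Of 6 endothelial markers none passed, although all 6 had lower means on PD15 and PD16 than on PD14, with sums of 85.3 to 96.3, 76.4 to 84.8 and 72.3 to 80.4 FPKM, and the most abundant was Cldn5 (means of 33.2, 26.4 and 24.7 FPKM). All 5 pericyte markers also had lower means on both later days, with sums of 38.4 to 42.2, 27.1 to 32.6 and 29.5 to 31.5 FPKM, and Rgs5 fell between PD14 and PD16, from 21.0 ± 1.29 to 13.3 ± 1.31 FPKM (limma, adjusted p = 0.029). Of 7 smooth muscle markers, Cnn1 rose between PD14 and PD16 (adjusted p = 0.035). All 7 had higher means on PD16 than on PD14 and than on PD15 (medians of 0.20 on the log2 scale in both), and their sums were 510.0 to 568, 474 to 592 and 523 to 703 FPKM. Of 10 oocyte markers, the sums were 1074 to 1324, 1391 to 1474 and 1003 to 1081 FPKM. From PD14 to PD16 the mean was lower for 8 of them and higher for 2 (median of -0.27 on the log2 scale). The libraries did not overlap for 6 of the lower (13.5% of all genes were lower without overlap) and 1 of the higher (15% were higher). None of the lower ones passed the test, and Bmp15 rose (limma, adjusted p = 0.033). Nlrp5 rose between PD14 and PD15 (adjusted p = 0.038), and Nlrp5 and Zp2 fell between PD15 and PD16 (0.044 and 0.043), when all 10 means were lower. Bmp15, Nlrp5, Zp2 and Zp3 passed the test for any difference among the days (limma, adjusted p of 0.025 to 0.048). That test was passed by 3.03% of all genes. None of the markers in these lists was at 0 in all libraries. The part of these cell types in the levels of the matrix genes was not tested.

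The blood and macrophage markers summed to 105 to 137 FPKM on PD14, 48.3 to 64.6 on PD15 and 63.0 to 116 on PD16. Of the 6 tested, Hba-a1, a haemoglobin gene, fell from PD14 to PD15 (limma, adjusted p = 0.038), where 0.342% of all genes were lower. Of the 5 fat markers 1 was tested, Plin1. It fell to PD15 and to PD16 (limma, adjusted p = 0.038 and 0.029), where 0.342% and 1.89% of all genes were lower. The 4 oviduct markers summed to at most 1.42 FPKM in any library. Of 6 tested markers of the surface epithelium, Krt8, Krt18 and Krt19 fell between PD14 and PD16 (limma, adjusted p = 0.022, 0.012 and 0.034), where 1.89% of all genes were lower. In that comparison the mean was lower for 4 of the 6 and higher for 2. The sums of the 7 listed surface epithelium markers were 55.5 to 64.6, 50.6 to 57.6 and 43.7 to 48.2 FPKM, and their part in the matrix levels was not tested.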

How the data were processed

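RNA of ovaries from Kunming mice on PD14, PD15 and PD16 was sequenced in 9 libraries (NEBNext Ultra, 1 µg of RNA, Illumina HiSeq). The submitters' processing notes name HISAT2 2.0.5 and mm10, and the counting program, its strand setting and the annotation are not given in the sources used here. The authors deposited FPKM, which was analysed without further scaling. Exon lengths and gene positions were from GENCODE M21 (GRCm38). Of the low FPKM in a library, 96.0% to 96.4% were whole multiples of a single fragment (within 2%), which gave the depths. FPKM is no count, so limma 3.58.1 (R 4.3.3) was run on log2(FPKM + 1) with an intensity trend and the 3 days in 1 fit, over 15495 genes whose mean exceeded 1 FPKM on any day, with Benjamini-Hochberg adjustment. Tested on simulated data of 15495 genes for PD16 against PD14, it called 62.5% of 200 genes changed by a log2 value of 0.5, 93.5% at 1 and 100% at 2. Of the calls, 5.30%, 7.43% and 4.76% were genes left unchanged. The changed genes were drawn from those with a mean log2(FPKM + 1) above 2, and the noise was independent between genes. Pair correlations used exact permutation of the 9 libraries. Other software was Python 3.11.15 with SciPy 1.17.1, pandas 2.3.3, NumPy 2.4.6 and Matplotlib 3.10.9.

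The 33 genes, the lists and the tests were chosen with earlier results of these data known. All 33 genes are accounted for, with the value in each library for genes that passed a test, the 2 largest changes of each comparison and the 8 highest means, and for others named after their values were seen. Log2 changes of at least 0.15 in size are printed, and smaller ones only where a library is left out. Genes of the other lists are named where they passed between 2 days, or else the most abundant tested one. Thy1 and Zp3 were named after their values were seen. The labels do not say that the libraries of a day come from separate mice, so that p-values measure the spread between these libraries. Alternatives were other pseudocounts (0.1 and 0.5), filters, scalings and limma settings, the replicate block, fits of 2 days and each library left out.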

Additional observations from a re-analysis of the deposited data

How the results depend on the processing

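Over 20 alternatives, the number of matrix genes called between PD14 and PD15 stayed at 0. Between PD14 and PD16 it was 1 as reported, 0 with no filter on low values, after rescaling to TPM, with the replicate block and with only those 2 days fitted, and 2 without the intensity trend (Fbln1 and Sparc). It was 0 to 1 when a library was left out, and without PD14 replicate 2 the 1 gene was Lox in place of Fbln1. Between PD15 and PD16 it was 1 (Col15a1) when genes with a mean FPKM above 5 were tested, and 0 to 1 when a library was left out. For any difference among days it was 2 (Col15a1 and Fbln1) with that filter, 0 under the other pseudocounts, filter, scalings, limma settings and the replicate block, and 0 to 1 when a library was left out, where the 1 gene was Col15a1 without PD14 replicate 2. The adjusted p of Fbln1 ran from 0.022 to 0.093, and it passed under 10 of 20 alternatives. No log2 change of at least 0.15 turned its sign, but 21 of these 43 changes moved by over 1.5 times when some library was left out. The correlation of Col5a1 and Col5a2 ran from -0.379 to 0.116 when a library was left out, and it was above 0 without PD14 replicate 3 (0.0153), PD16 replicate 2 (0.116) or PD16 replicate 3 (0.00951). The number of correlated pairs was 4 under all its alternatives, and the ratios within pairs moved by less than their SD. Plod2 and Itga2 passed between PD14 and PD16 under all 20 alternatives, whereas Adamts2 passed under 11, P4ha1 under 12 and Omd under 13. Between PD15 and PD16, Itga2 passed under 16, Plod2 under 12 and Mfap5 under 9. The calls of the marker lists passed under 7 (Kitl) to 19 (Krt18). Libraries with the same replicate number did not deviate together (r of deviations from -0.21 to 0.16), so that the numbers do not pair them. The cause of these differences was not tested. In the simulated data for PD16 against PD14, 62.5% of the genes changed by 0.5 were called. Smaller changes, changes of low genes and the other comparisons were not simulated.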

Other observations

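Of the markers of granulosa cells, which line the antrum and border on the follicular basement membrane, Amh rose from 176 ± 9.32 FPKM on PD14 to 245 ± 10.5 on PD16 (SD, n = 3; limma, adjusted p = 0.022). Kitl fell from 55.5 ± 4.75 to 38.9 ± 4.36 FPKM (adjusted p = 0.049, with a pass under 7 of 20 alternatives and an adjusted p up to 0.13) and Cyp19a1 from 5.11 ± 1.43 to 2.37 ± 0.428 FPKM (adjusted p = 0.032, with a pass under 12 of 20). The other 6 of the 9 granulosa markers did not pass between these days, where 2.36% of all genes were higher and 1.89% lower. Nlrp5, an oocyte gene, was highest on PD15, at 153 ± 9.36 FPKM against 90.8 ± 16.3 on PD14 and 92.5 ± 9.55 on PD16 (limma, adjusted p = 0.038 and 0.044). These calls passed under 11 and 10 of 20 alternatives, with an adjusted p up to 0.13 and 0.14.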
